A study of Mus musculus with 8 samples.

Results

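Amino acid transporters of 7 solute carrier families (Slc1, Slc3, Slc6, Slc7, Slc36, Slc38 and Slc43) were examined in osteoblastic cells (OBCs), the bone-forming cells, sorted from mouse long bones. The genes were chosen by symbol alone, as every row of the deposited table named after one of these families and ending in a number. This gave 52 of 17068 genes. The Slc6 family held 15 of them, Slc7 11, Slc38 10, Slc1 7, Slc36 4, Slc43 3 and Slc3 2. The samples were 4 libraries of OBCs from female C57BL/6J mice bearing a BCR-ABL+ leukemia of immature B cells (B-ALL) and 4 libraries of OBCs from healthy females of the same strain. All mice were about 10 weeks old, and the cells were freshly isolated by collagenase digestion and flow sorting. The labels give neither the sorting markers nor how leukemia was induced. They also do not say whether the libraries came from separate animals, so a p-value here reflects how far these samples vary, which could be technical variation alone. Fewer cells of a type and less RNA per cell cannot be told apart in such bulk samples.

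Amino acid carriers set which amino acids a cell can take up, exchange and release. Slc3a2 and Slc3a1 are heavy chains: they carry no amino acid themselves but bring light chains of the Slc7 family to the cell surface. Osteoblasts need much glycine, proline and glutamine, because they secrete collagen, and in mouse osteoblasts Slc1a5 and Slc38a2 are known carriers of glutamine and proline.

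Of the 52 genes, 31 reached 1 FPKM (read fragments, corrected for transcript length and library depth) in 4 or more libraries, the minimum for a test; 21 did not. Read depth is unknown, since the table holds FPKM and no counts. The osteoblastic label was borne out by its markers: all 11 were in the table, and their summed level lay between 46700 and 91900 FPKM in every control library and between 47300 and 82900 FPKM in every leukemic library. Spp1 gave the largest share of this sum in each of the 8 libraries, and 9 of the 11 had a lower leukemic mean, the exceptions being Bglap and Bglap2. Phex, an endopeptidase of osteoblasts and osteocytes, lay between 3.12 and 4.77 FPKM in leukemic and between 7.01 and 12.54 FPKM in control libraries, and the part of these markers in the transporter differences was not tested. Leukemic libraries 1 and 2 were richer in short transcripts than the other 6: the Spearman rho between transcript length and a gene's deviation from its mean was -0.354 and -0.346 in these, and between -0.113 and 0.35 in the rest. The tested transporters have long transcripts, with a median of 3927 bases against 3054 for all tested genes.

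Some of these genes share sequence, which matters for reading the values below. The proton-coupled carriers Slc36a2 and Slc36a1 are neighbours on chromosome 11, and their longest GENCODE M21 transcripts (GRCm38) share 4 identical runs of 31 bases or more, 250 bases in all. The longest run is shown because fragments that fall in it cannot be assigned to either gene by sequence. It is 137 bases long and is coding in both genes, at chr11:55159440-55159576 on the minus strand in Slc36a2 and at chr11:55232406-55232542 on the plus strand in Slc36a1. Capitals mark the identical bases and lower case the 12 transcript bases on each side.
Slc36a2: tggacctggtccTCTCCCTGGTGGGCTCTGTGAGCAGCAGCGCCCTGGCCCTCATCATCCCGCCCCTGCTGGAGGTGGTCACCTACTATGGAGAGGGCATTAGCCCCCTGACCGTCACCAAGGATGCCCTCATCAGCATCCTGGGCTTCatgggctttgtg
Slc36a1: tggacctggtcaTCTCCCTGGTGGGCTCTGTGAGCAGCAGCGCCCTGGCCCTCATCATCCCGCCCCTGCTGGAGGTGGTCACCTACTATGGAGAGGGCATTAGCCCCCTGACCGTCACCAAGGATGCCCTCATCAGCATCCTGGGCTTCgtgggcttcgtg

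Mean levels over the 8 libraries ran from 0.00125 FPKM for Slc6a16 to 151.9 FPKM for Slc3a2, and a few carriers made up most of the transporter RNA. Summed over the 52 genes, the level was 712 ± 91.7 FPKM (SD, n = 4) with leukemia and 802 ± 42.8 FPKM (n = 4) without it, with overlapping groups. The 10 most abundant genes gave between 80% and 84.7% of this sum in each library. The heavy chain Slc3a2 alone gave a mean of 20.2%, followed by the glutamine carrier Slc1a5 with 10.6% and the sodium-coupled carrier Slc38a2 with 9.72%. At the other end, 11 genes had a mean under 0.1 FPKM.

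**Figure D1:**
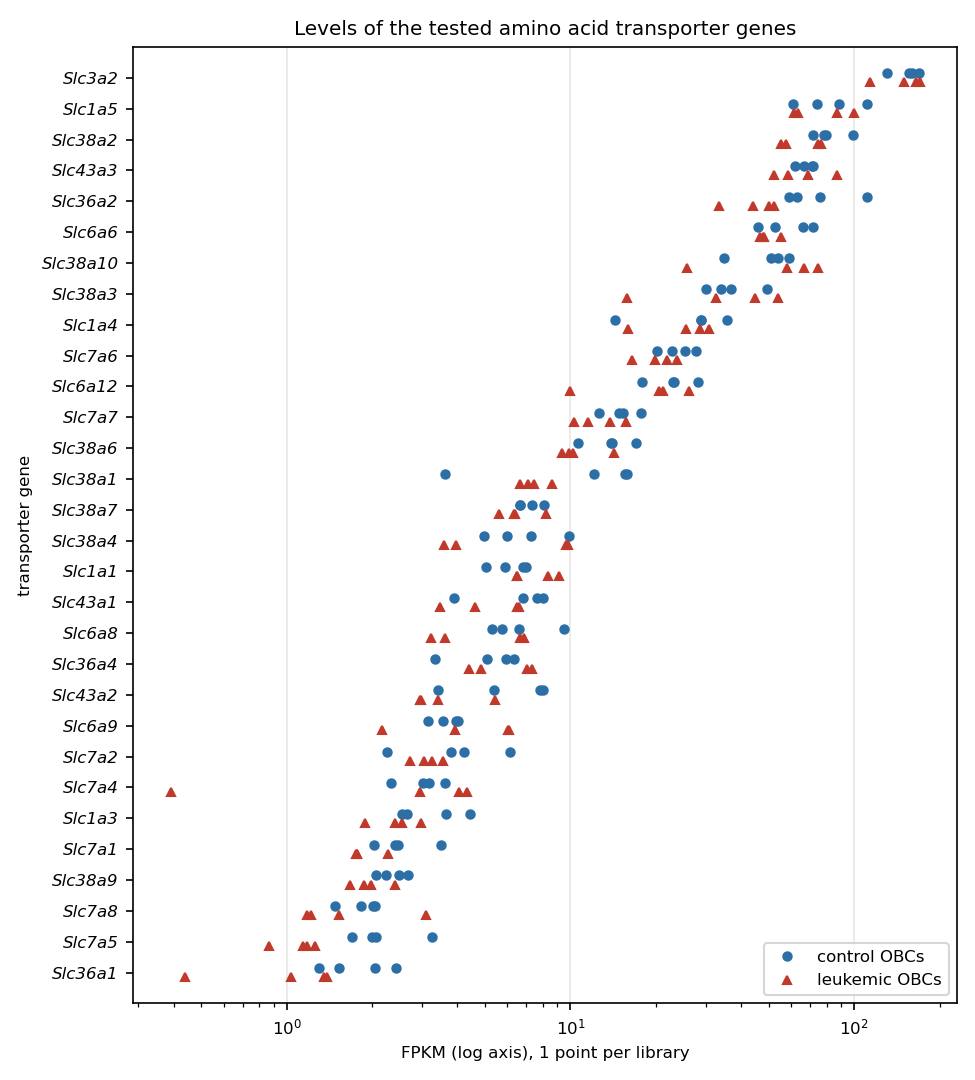
FPKM on a log axis of the tested amino acid transporter genes that are described here, ordered by mean level, with 1 point per library (circles, 4 control; triangles, 4 leukemic). Slc3a2 lies highest, between 114 and 170.0 FPKM, and in Slc36a2 and Slc7a5 every triangle lies to the left of every circle.

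The comparison the design implies is that of leukemic with healthy OBCs. No transporter passed limma's test with Benjamini-Hochberg adjustment over all 11214 tested genes: 0 of 31 had an adjusted p under 0.05, as did 0% of all genes, and the lowest adjusted p among transporters was 0.695. The clearest separations were Slc36a2, a proton-coupled carrier of glycine and proline, and Slc7a5, the light chain for large neutral amino acids, each lower in all 4 leukemic libraries than in any control library. Most of the others had slightly lower leukemic means. The 4 with a positive difference were Slc1a1, Slc6a9, Slc36a4 and Slc38a10.

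On the log2(FPKM + 1) scale, on which changes of low genes look smaller, 27 of 31 transporters (87.1%) had a negative difference, leukemic minus control, against 53.6% of all tested genes. Their median difference was -0.219, against -0.025 for all tested genes. At an unadjusted p under 0.05, 2 transporters were lower, 6.45% of those tested against 4.13% of all genes, and 0 were higher against 2.49% of all genes. The groups did not overlap in 2 transporters with all leukemic libraries below, against 2.9% of all genes, and in 0 with all above, against 0.954% of all genes. The counts of 2 are thus close to the background, and the tested genes are not independent of each other.

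The library that weighed most on this lower median was leukemic library 2. It held the lowest value of 12 of the 31 tested transporters and the highest of 0, and leukemic library 1 held the lowest of 8. Without leukemic library 2, 22 of 31 differences were negative (71% against 51.8% of all genes) and the median was -0.123. Leaving out leukemic library 1 alone did not bring the median nearer to 0: it was -0.24, with 25 of 31 negative (80.6% against 50.5% of all genes). Without leukemic libraries 1 and 2 together, 20 of 31 were negative (64.5% against 51.6% of all genes), with a median of -0.113. Control library 2 held the highest value of 9 transporters. With that library left out the median was -0.156, and 28 of 31 were negative (90.3% against 53.5% of all genes). With the trend with transcript length removed in each library, 26 were negative and the median was -0.108. The part of transcript length in the lower median was not tested beyond these values.

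**Figure D2:**
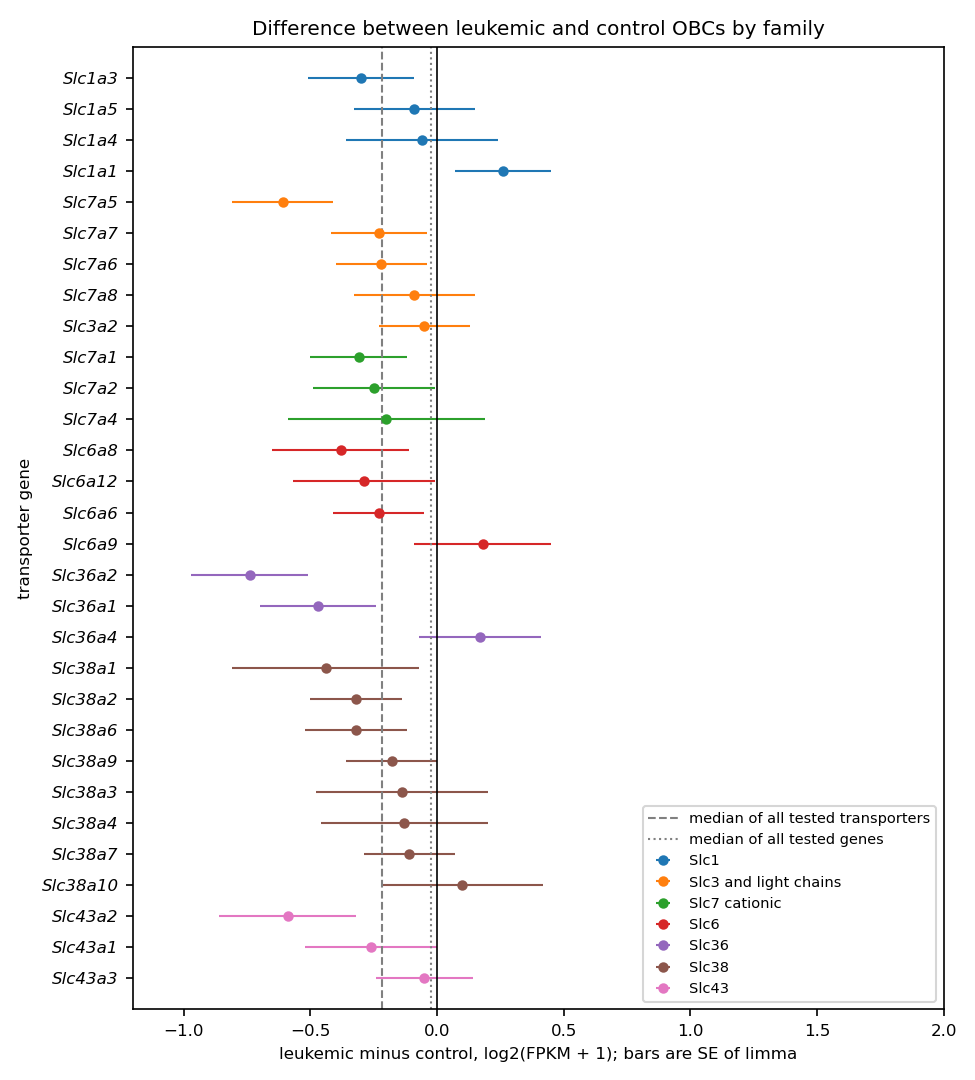
Difference between leukemic and control OBCs (leukemic minus control, log2(FPKM + 1)) for each tested transporter described here, grouped by family, with the SE of limma as bars (4 libraries per group). The dashed line at -0.219 is the median of all 31 tested transporters and the dotted line at -0.025 that of all tested genes; Slc36a2 lies farthest to the left at -0.74.

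The proton-coupled Slc36 family held the gene with the smallest p among the 31 that passed the filter on low values. Slc36a2 (gene ID 246049, GRCm38.p6 chromosome 11, 55158468 to 55185099) carries glycine, alanine and proline together with protons. Its level was 33.5, 52.2, 44.1 and 50.01 FPKM in leukemic libraries 1 to 4 and 75.9, 59.1, 111 and 62.7 FPKM in control libraries 1 to 4. Every leukemic library lay below the lowest control library, and control library 3 was far above the other controls.

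The means of Slc36a2 were 45.0 ± 8.35 FPKM (SD, n = 4) with leukemia and 77.2 ± 23.7 FPKM (n = 4) without it, 41.7% lower. The difference on the log2(FPKM + 1) scale was -0.74 (SE 0.23; limma adjusted p = 0.695). It was -0.55 without control library 3 and ran from -0.88 to -0.55 over 19 alternatives, with an adjusted p of 0.125 at the lowest.

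Slc36a1 (gene ID 215335, chromosome 11, 55204322 to 55236330), a lysosomal and surface carrier of the same amino acids, was near the lower end of what was tested. It stood at 0.44, 1.04, 1.39 and 1.35 FPKM in leukemic libraries 1 to 4 and at 2.04, 2.42, 1.53 and 1.30 FPKM in control libraries 1 to 4. The groups overlapped through control library 4, and the difference was -0.47 (SE 0.23; limma adjusted p = 0.695). It was -0.307 without leukemic library 1 and -0.235 without leukemic libraries 1 and 2. Slc36a2 was the far more abundant neighbour and the runs printed above are shared, so the low value of Slc36a1 is uncertain. The tryptophan and proline carrier Slc36a4 stood at 5.91 ± 1.51 FPKM in leukemic and 5.17 ± 1.33 FPKM in control libraries (n = 4 each), and Slc36a3 was listed at 0 in 7 of 8 libraries.

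The heavy chain was abundant and alike in both groups, while its light chains were lower in RNA and unequal among themselves. Slc3a2 (gene ID 17254, chromosome 19, 8706882 to 8723369), known as CD98 or 4F2hc, stood at 114, 150.1, 165 and 170.0 FPKM in leukemic libraries 1 to 4 and at 156, 130.2, 169 and 159.9 FPKM in control libraries 1 to 4. The groups overlapped across nearly their whole range, with a difference of -0.05 (SE 0.18; limma adjusted p = 0.963). Slc3a1, the heavy chain of kidney and gut, was listed at 0 in leukemic libraries 1 and 2 and in control libraries 3 and 4, at 0.15 and 0.29 FPKM in leukemic libraries 3 and 4, and at 0.08 and 0.02 FPKM in control libraries 1 and 2.

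Slc7a5 (gene ID 20539, chromosome 8, 121881146 to 121907686) encodes LAT1, which imports leucine and other large neutral amino acids in exchange for glutamine. Its level was 0.87, 1.18, 1.14 and 1.26 FPKM in leukemic libraries 1 to 4 and 2.00, 3.26, 2.07 and 1.70 FPKM in control libraries 1 to 4. The leukemic range ended below the control range, at levels close to the 1 FPKM used as the minimum.

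The means of Slc7a5 were 1.11 ± 0.169 FPKM in leukemic and 2.26 ± 0.687 FPKM in control libraries (SD, n = 4 each), 50.7% lower. The difference was -0.61 (SE 0.20; limma adjusted p = 0.695), and -0.93 with a pseudocount of 0.1 in place of 1. Without leukemic libraries 1 and 2 it was -0.545, with an unadjusted p no longer under 0.05 (limma adjusted p = 0.875). In the authors' deposited table the log2 ratio of leukemic over control, made by a method that is not stated, was -1.01 for Slc7a5 and -0.75 for Slc36a2.

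Other light chains outweighed Slc7a5 in these cells. Slc7a6 (y+LAT2), which exchanges cationic for neutral amino acids, stood at 23.8, 16.5, 21.98 and 19.8 FPKM in leukemic libraries 1 to 4 and at 22.8, 27.7, 25.4 and 20.1 FPKM in control libraries 1 to 4. Slc7a7 (y+LAT1), a carrier of the same type, stood at 13.8, 10.3, 11.5 and 15.7 FPKM in the leukemic set and at 12.6, 17.7, 14.9 and 15.4 FPKM in the controls. Both overlapped between the groups, with differences of -0.22 (SE 0.18) for Slc7a6 and -0.23 (SE 0.19) for Slc7a7. Without leukemic library 2 these were -0.123 and -0.139. Slc7a8 (LAT2), a carrier of neutral amino acids, stood at 1.22, 1.53, 1.18 and 3.09 FPKM in the leukemic set and at 2.01, 1.48, 1.83 and 2.05 FPKM in the controls, with leukemic library 4 highest of all. Slc7a11 (xCT), the cystine importer, stayed between 0.07 and 0.18 FPKM in every library, and Slc7a9, the usual partner of Slc3a1, between 0 and 2.09 FPKM.

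Among the 5 light chains of Slc3a2 examined here, Slc7a6 gave 55.3% ± 3.02 and Slc7a7 35.0% ± 3.08 of the summed light-chain FPKM in control libraries (SD, n = 4). The share of Slc7a5 was 5.13% ± 0.951 in control and 3.12% ± 0.736 in leukemic libraries. The share of Slc7a5 lay between 2.19% and 3.99% in leukemic and between 4.32% and 6.49% in control libraries, which did not overlap. It rests on the same low Slc7a5 values as above and is not a second result. Slc3a2 exceeded the summed light chains 3.6 ± 0.683 times in control and 4.19 ± 0.95 times in leukemic libraries, with overlapping groups.

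**Figure D3:**
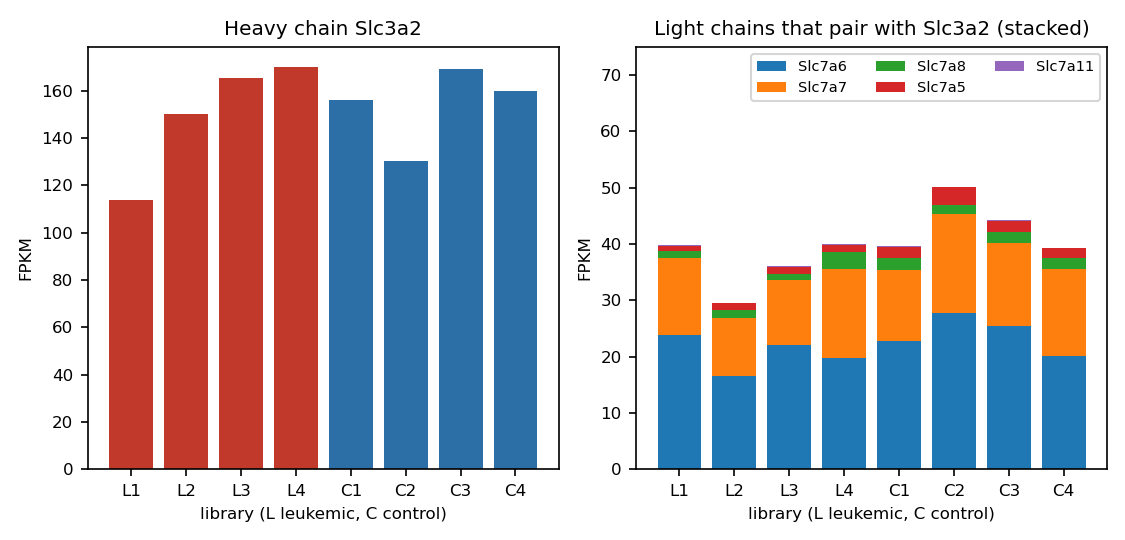
FPKM in each library of the heavy chain Slc3a2 (left, bars coloured by group) and of 5 light chains that pair with it, stacked (right; L leukemic, C control, libraries 1 to 4). The summed light chains lie between 29.6 and 50.2 FPKM and are mostly Slc7a6 and Slc7a7; Slc7a5 is a thin band in each bar.

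The cationic carriers, which import arginine and lysine without a heavy chain, were low. Slc7a1 (CAT-1) stood at 1.75, 1.77, 2.27 and 1.77 FPKM in leukemic libraries 1 to 4 and at 2.41, 3.51, 2.03 and 2.46 FPKM in control libraries 1 to 4. Leukemic library 3 alone reached into the control range, and the difference was -0.31 (SE 0.19; limma adjusted p = 0.701), and -0.193 without control library 2. Slc7a2 (CAT-2) stood at 3.15 ± 0.353 against 4.11 ± 1.6 FPKM and the related Slc7a4 at 2.93 ± 1.80 against 3.04 ± 0.535 FPKM in leukemic and control libraries (n = 4 each), while Slc7a3 and Slc7a14 were not tested. All 3 tested differences were negative, with a median of -0.25.

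In the Slc1 family the neutral exchangers were high and the glutamate carriers low. Slc1a5 (ASCT2), which imports glutamine in exchange for other small neutral amino acids, stood at 61.4, 63.6, 87.1 and 100.1 FPKM in leukemic libraries 1 to 4 and at 111, 74.1, 88.5 and 60.7 FPKM in control libraries 1 to 4. Slc1a4 (ASCT1), the related serine and alanine exchanger, stood at 25.5, 15.9, 28.7 and 30.8 FPKM in the leukemic set and at 35.7, 28.9, 14.4 and 29.0 FPKM in the controls. The groups overlapped widely in both genes, with differences of -0.09 (SE 0.24) and -0.06 (SE 0.30), whose sign turned under some of the alternatives.

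Of the glutamate importers, Slc1a1 (EAAC1) stood at 9.09, 6.46, 6.47 and 8.35 FPKM in leukemic libraries 1 to 4 and at 5.86, 5.03, 6.82 and 6.97 FPKM in control libraries 1 to 4, a difference of 0.26 (SE 0.19; limma adjusted p = 0.727). It was the largest positive difference among the tested transporters. Exons of Slc1a1 overlap those of 4430402I18Rik on the opposite strand over 2631 bases, and the library kit does not keep strand, so their reads cannot be told apart there; 4430402I18Rik itself was listed at 0.96 ± 0.809 against 1.34 ± 0.549 FPKM. Slc1a3 (GLAST) stood at 2.98, 1.89, 2.41 and 2.55 FPKM in the leukemic set and at 3.63, 2.65, 4.41 and 2.54 FPKM in the controls (difference -0.30, SE 0.21, and -0.187 without control library 3). Opposite-strand exons also overlap Slc6a9 (with Ccdc24, 1429 bases), Slc43a2 (with Gm45606, 922 bases), Slc7a2 (with Gm26584, 635 bases), Slc3a1 (with Prepl, 601 bases), Slc7a4 (with P2rx6, 554 bases), Slc38a10 (with Gm11769, 367 bases), Slc7a7 (with Oxa1l, 232 bases), Slc38a9 (with Gm47827, 182 bases) and Slc6a6 (with Gm44981, 117 bases). Slc1a2, Slc1a6 and Slc1a7, glutamate carriers of brain and retina, were not tested.

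The Slc38 family held the largest number of tested genes, 8 of 10. Slc38a2 (SNAT2; gene ID 67760, chromosome 15, 96687392 to 96699728), a sodium-coupled importer of small neutral amino acids, stood at 55.2, 57.6, 74.5 and 76.2 FPKM in leukemic libraries 1 to 4 and at 79.5, 78.4, 99.2 and 71.5 FPKM in control libraries 1 to 4. Leukemic libraries 3 and 4 reached above the lowest control library, and the difference was -0.32 (SE 0.18; limma adjusted p = 0.695). Without leukemic libraries 1 and 2 it was -0.11. Slc38a6, an orphan member of the family, stood at 10.2, 14.2, 9.92 and 9.36 FPKM in the leukemic set and at 10.6, 14.0, 17.1 and 13.9 FPKM in the controls (difference -0.32, SE 0.20). The value of Slc38a6 is uncertain, since 19.43% of the 31-base subsequences of its transcripts also occur in D10Wsu102e.

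Slc38a10 and Slc38a3 varied more between libraries than between groups. Slc38a10 stood at 58.2, 25.7, 66.6 and 74.4 FPKM in leukemic libraries 1 to 4 and at 58.8, 34.7, 54.1 and 51.0 FPKM in control libraries 1 to 4. Slc38a3 (SNAT3), which moves glutamine, asparagine and histidine in either direction, stood at 53.8, 15.9, 32.6 and 44.6 FPKM in the leukemic set and at 34.0, 49.3, 30.0 and 36.9 FPKM in the controls. In both genes leukemic library 2 was the lowest of the 8.

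Slc38a1 (SNAT1), another glutamine importer, stood at 7.46 ± 0.847 FPKM in leukemic and 11.8 ± 5.70 FPKM in control libraries (n = 4 each), where control library 3 at 3.62 FPKM lay below all leukemic libraries. Slc38a4 stood at 6.75 ± 3.44 against 7.02 ± 2.10 FPKM and Slc38a7, a lysosomal glutamine and asparagine exporter, at 6.63 ± 1.11 against 7.19 ± 0.688 FPKM. Slc38a9, the lysosomal arginine sensor of the mTORC1 pathway, stood at 1.99 ± 0.313 against 2.37 ± 0.269 FPKM. None of these 4 had an unadjusted p under 0.05, and Slc38a5 and Slc38a11 were not tested.

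The Slc43 carriers move their substrates without sodium. Slc43a3, which carries purine bases rather than amino acids, was the fourth most abundant gene of the group by mean, at 86.9, 52.1, 68.6 and 58.6 FPKM in leukemic libraries 1 to 4 and at 61.8, 71.6, 66.7 and 70.8 FPKM in control libraries 1 to 4. Slc43a2 (LAT4; gene ID 215113, chromosome 11, 75529915 to 75577575), which lets branched-chain amino acids and phenylalanine pass, stood at 3.42, 2.94, 2.97 and 5.42 FPKM in the leukemic set and at 8.03, 7.82, 3.41 and 5.40 FPKM in the controls. The groups of Slc43a2 overlapped through leukemic library 4 and control library 3, and the difference was -0.59 (SE 0.27; limma adjusted p = 0.695). Over 19 alternatives it ran from -0.80 to -0.45. It was -0.80 without control library 3, where its unadjusted p was under 0.05 (limma adjusted p = 0.708). It was -0.448 without leukemic libraries 1 and 2 and -0.447 with the length trend removed. In neither of these was its unadjusted p under 0.05. The related Slc43a1 (LAT3) stood at 5.30 ± 1.52 against 6.58 ± 1.87 FPKM (n = 4 each).

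**Figure D4:**
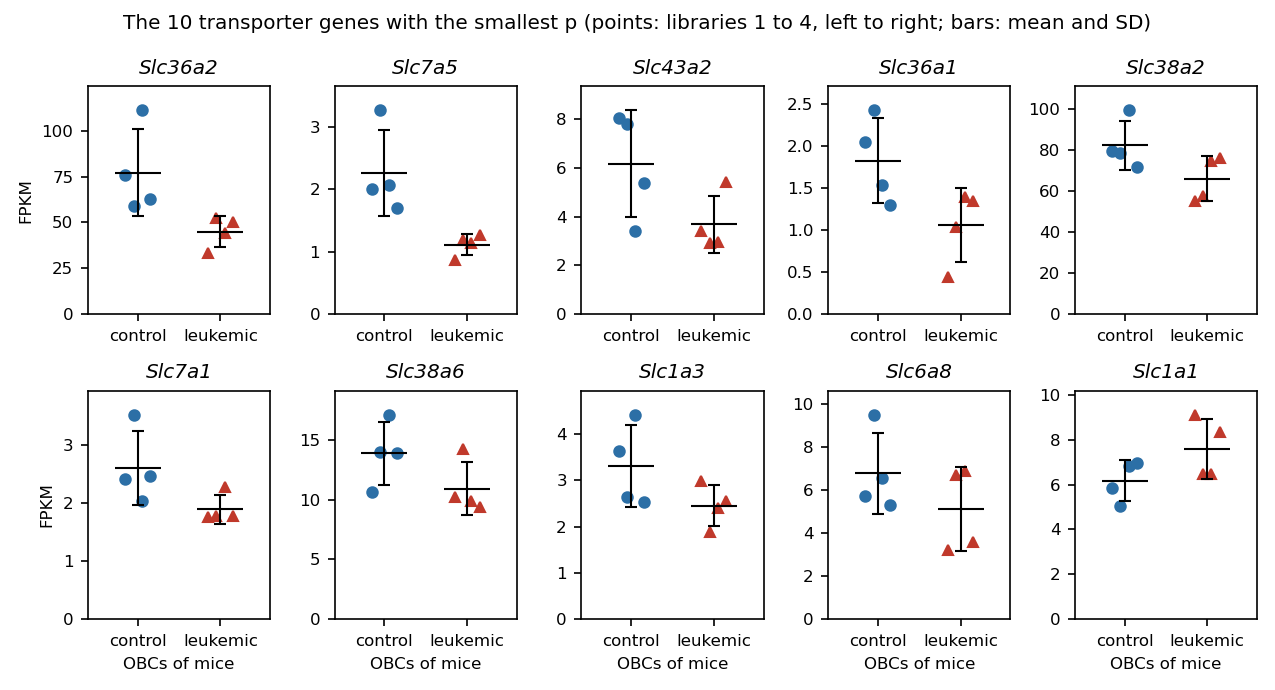
FPKM of the 10 transporter genes with the smallest p in limma, with 1 point per library (libraries 1 to 4 from left to right) and the mean and SD of the 4 libraries in each group. The groups are apart in Slc36a2 and Slc7a5 and overlap in the other 8; Slc1a1 is the only one of the 10 with a higher leukemic mean.

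The Slc6 family couples uptake to sodium and chloride, and includes the transmitter carriers of neurons. Slc6a6 (TauT), the taurine importer, stood at 48.3, 47.8, 55.3 and 46.7 FPKM in leukemic libraries 1 to 4 and at 71.7, 65.8, 45.9 and 52.8 FPKM in control libraries 1 to 4, with control library 3 lowest and control library 1 highest. Its difference was -0.23 (SE 0.18; limma adjusted p = 0.743), and -0.132 without control library 1. Slc6a8, the creatine importer, stood at 3.23, 6.67, 6.88 and 3.6 FPKM in the leukemic set and at 5.73, 9.46, 6.57 and 5.28 FPKM in the controls (difference -0.38, SE 0.27). The difference of Slc6a8 was -0.221 without leukemic library 1 and -0.224 without control library 2. Slc6a12 (BGT1), which carries betaine, stood at 19.5 ± 6.83 against 23.0 ± 4.20 FPKM.

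Slc6a9 (GlyT1), the glycine importer, stood at 4.55 ± 1.89 against 3.67 ± 0.40 FPKM. The other 10 genes of the family were not tested. Among them was Slc6a2, the noradrenaline importer, at 0.06, 0.45, 0.48 and 0.71 FPKM in leukemic libraries 1 to 4 and 0.87, 0.95, 1.25 and 1.11 FPKM in control libraries 1 to 4. The 2 groups of Slc6a2 did not overlap, at levels around the minimum; it was singled out after its values were seen. Without the filter on low values, its difference was -0.54 (SE 0.154; limma adjusted p = 0.754), and its p was smaller than those of Slc36a2 and Slc7a5 in the same fit.

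The 21 genes that were not tested lay between 0 and 2.09 FPKM. Slc6a2, Slc7a9, Slc38a5 and Slc7a3 were the 4 that reached 1 FPKM in at least 1 library. A mean of at least 0.1 FPKM was found for 10 of the 21, the highest being 0.735 FPKM for Slc6a2, and the other 11 were lower.

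Promoter letters were examined for the amino acid response core, TGATGCAA, bound by factors of the Atf4 family when amino acids run short. RefSeq promoters (GRCm38.p6, 250 bases before to 50 after the start) were held for 37 of the 52 genes, with 56 windows, but for neither Slc36a2 nor Slc7a5. The 8 letters were found on either strand in windows of 3 genes, Slc7a11, Slc1a4 and Slc7a7, while 1.03% of all genes with a promoter held them. These stretches are shown because they hold the core, in genes of very different level; capitals mark the core on either strand. A match is a description of letters, not a binding site.
Slc7a11, chr3:50443633-50443699, minus strand: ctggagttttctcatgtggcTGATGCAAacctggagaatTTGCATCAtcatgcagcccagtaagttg
Slc1a4, chr11:20332684-20332743, minus strand: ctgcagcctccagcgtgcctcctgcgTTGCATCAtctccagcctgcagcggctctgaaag
Slc7a7, chr14:54417912-54417971, minus strand: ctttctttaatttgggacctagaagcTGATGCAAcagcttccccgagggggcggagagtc

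Slc7a11 held 2 copies and stayed at or under 0.18 FPKM, whereas Slc1a4 and Slc7a7 held 1 copy at each shown position and stood above 10 FPKM in every library. None of these 3 genes separated the groups.

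Genes that use or sense amino acids were read beside the carriers, in 5 lists with 113 distinct tested genes. None had an adjusted p under 0.05, and 5 had an unadjusted p under 0.05, all lower in leukemic OBCs. That is 4.42% of the 113, near the 4.13% of all genes that were lower at this threshold. Counted in either direction, the 5 became 0 without leukemic library 1 and 1 without leukemic library 3, control library 3 or control library 4. Without leukemic library 4 the count was 15, in a fit where 1237 of all genes were higher and 506 lower at this threshold. The metabolism list had 4 of these among 30 tested genes, 13.3% against the same 4.13%. Among them were Got1, a cytosolic aspartate aminotransferase (8.498 ± 1.59 against 11.8 ± 1.88 FPKM; limma adjusted p = 0.695), Gclc, the catalytic subunit of glutathione synthesis (1.94 ± 0.85 against 3.18 ± 0.506 FPKM) and Pycr1, the last enzyme of proline synthesis (55.8 ± 13.9 against 75.2 ± 7.5 FPKM). In each of these 3 genes 3 leukemic libraries lay below the lowest control library. Their unadjusted p in limma was 0.047, 0.0473 and 0.0481, just under the threshold, so the share of 13.3% depends on the exact cut. The list's median difference was -0.02, with 18 negative and 12 positive. In 1 of its 30 tested genes all leukemic libraries lay above all controls, against 0.954% of all genes. In 0 they all lay below, against 2.9% of all genes.

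The mTORC1 sensing list had 1 of 34 tested genes lower at an unadjusted p under 0.05, 2.94% against 4.13% of all genes. It was Rptor, the scaffold of mTORC1, at 2.64 ± 0.694 against 4.80 ± 1.53 FPKM (limma adjusted p = 0.695), and the median of the list was -0.04. The cytosolic aminoacyl-tRNA synthetases, which load amino acids onto tRNA, had 16 of 20 differences negative and a median of -0.10. Over all tested genes 53.6% of differences were negative and the median was -0.025. The smallest p of the synthetases belonged to Eprs (42.2 ± 4.95 against 55.1 ± 8.37 FPKM) and Rars (25.2 ± 3.44 against 30.5 ± 2.38 FPKM). The Atf4 list had 7 of 18 negative and 11 positive, with a median of 0.04. Its smallest p belonged to Ddit3, a stress transcription factor, at 67.5 ± 38.2 against 38.2 ± 10.2 FPKM, and to Eif4ebp1, a repressor of translation, at 55.6 ± 33.0 against 29.3 ± 9.41 FPKM; in both, leukemic library 2 was highest and leukemic library 4 lowest. Amino acid carriers outside the 52 chosen genes had 7 of 13 negative and a median of -0.01. Only Slc66a1, a lysosomal exporter of cationic amino acids, separated the groups: 1 of 13 with all leukemic libraries below, against 2.9% of all genes. Its level was 10.45 ± 2.42 against 13.65 ± 1.65 FPKM (limma adjusted p = 0.695). Slc18a2, a vesicular monoamine carrier, stood at 2.25 ± 0.516 against 3.16 ± 1.01 FPKM.

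Markers of other cell types were read in the same libraries. Of 11 macrophage markers, 5 had a higher leukemic mean and 6 a lower one. The sum of the 11 lay between 71.8 and 165 FPKM in leukemic and between 69.7 and 91.1 FPKM in control libraries. Lyz2, 1 of the 5, gave the largest share of this sum in each library. Its level was 106.87, 113.97, 69.63 and 41.04 FPKM in leukemic and 45.09, 44.89, 34.75 and 47.15 FPKM in control libraries. Adgre1 was listed at 0 in 6 of 8 libraries. Of 11 B-lineage markers, 9 had a higher leukemic mean (sums of 20.6 to 53.5 against 20 to 41.1 FPKM), and 2 a lower one. Ebf1, which gave most of each sum, was 1 of these 2. It stood at 11.82, 37.38, 20.9 and 18.03 FPKM in leukemic and 32.43, 18.4, 39.9 and 18.84 FPKM in control libraries. Among the 9, Vpreb1 stood at 3.06, 4.33, 1.21 and 0.26 against 0.32, 0.32, 0 and 0.53 FPKM. Pax5 was among 6 of the 11 that were listed at 0 in at least 4 libraries. Of 5 pan-leukocyte markers, 4 had a higher leukemic mean (2.88 to 9.09 against 2.60 to 5.59 FPKM). Schwann cell markers summed to 292 to 386 against 159 to 398 FPKM, with 4 of 6 higher in the leukemic mean, and fibroblast and tendon markers to 2410 to 4350 against 1310 to 3690 FPKM, with 6 of 7 higher. Erythroid markers summed to 4.02 to 2010 against 33.9 to 891 FPKM, with leukemic library 2 highest. Skeletal muscle markers had 6 of 6 higher (5.73 to 18.1 against 7.97 to 11.4 FPKM). Osteoclast markers had 4 of 5 higher (246 to 336 against 208 to 305 FPKM). For adipocytes it was 3 of 5 (195 to 906 against 238 to 1170 FPKM). For neutrophils it was 3 of 8 (11.5 to 63.7 against 11.9 to 74 FPKM). For endothelium it was 3 of 6 (16 to 29.5 against 18.2 to 28.6 FPKM). The sums overlapped between the groups for all of these lists, and their part in the transporter differences was not tested.

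**Figure D5:**
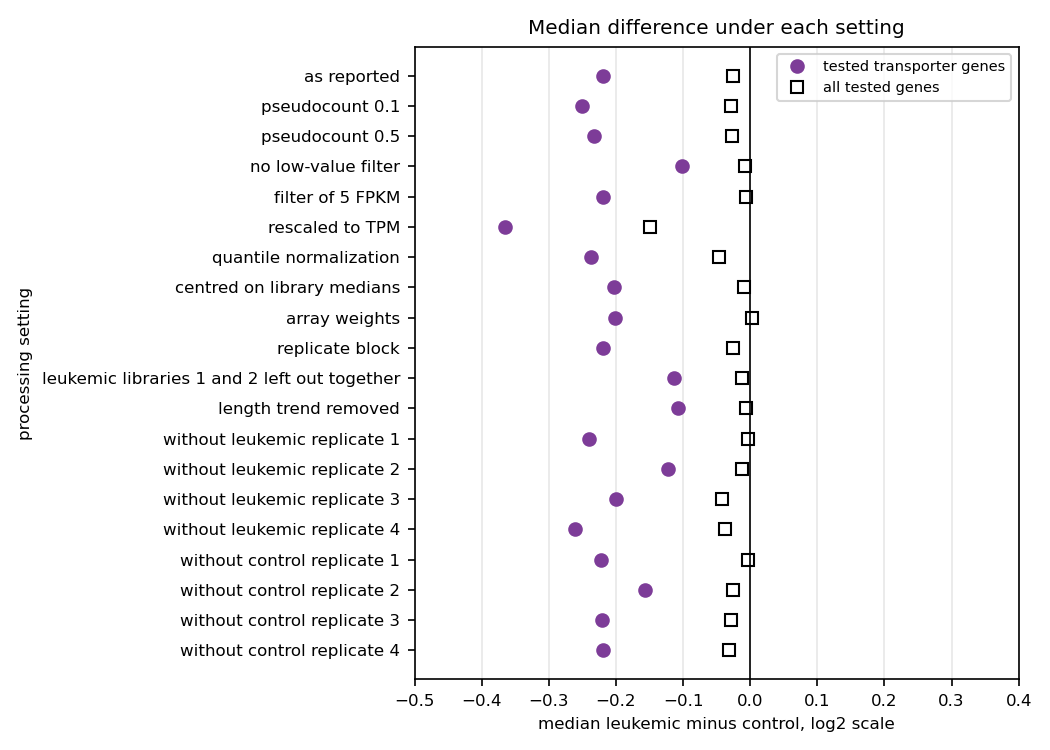
Median difference between leukemic and control OBCs of the tested transporters (filled circles) and of all tested genes (open squares) under each way of processing, from the values as reported to each library left out in turn. The transporter median stays below 0 and below that of all genes under each of them, between -0.365 and -0.101, and lies nearest to 0 without the low-value filter, with the length trend removed and without leukemic libraries 1 and 2.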

How the data were processed

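RNA was extracted from OBCs sorted from mouse long bones, and libraries were made with SMART-Seq v4, which does not keep strand, per the labels' protocols. The deposited table holds FPKM per gene and library, computed by the authors. Per the submitters' processing notes, the tools included RSEM 1.2.8 and DESeq2, the aligners HISAT2 2.0.4 and Bowtie2 2.2.5, and the build was GRCm38.p6; the notes used here give no order. A column of log2 ratios of leukemic over control, made by the authors, is deposited beside them without a method, and is within 0.01 of the log2 ratio of the FPKM means in 1330 of 15705 genes. Read depth is unknown, so no counting interval is given.

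Genes with at least 1 FPKM in 4 or more of 8 libraries (11214) were tested as log2(FPKM + 1) with limma 3.58.1 (eBayes with trend, two-sided, R 4.3.3), with Benjamini-Hochberg adjustment over all of them and a threshold of 0.05. The procedure was tested on simulated data, drawn independently for each gene and library. Such data lack the length trends of these libraries, so that test does not cover them. Values in every library are given for the 10 transporters with the smallest p, the 10 most abundant, both heavy chains and the tested light chains, and the other tested ones by group means; 1 tested transporter and 1 gene of the metabolism list are not reported here. Members, lists and alternatives were chosen with earlier results of these data known. The libraries were treated as unpaired, since the labels state no pairing. Same-numbered libraries had correlations of their deviations of 0.122, -0.047, -0.072 and 0.22. Those of the other pairs ran from -0.295 to 0.217, and such values cannot decide whether libraries were paired. Alternatives were 11 settings and each library left out in turn.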

Additional observations from a re-analysis of the deposited data

Results flagged for a closer look

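Leukemic library 3 held 2.27 FPKM of Slc7a1, the cationic carrier CAT-1, while the other leukemic libraries held 1.75, 1.77 and 1.77 FPKM. Its gap to the nearest of them was 0.962 of the whole range, above the critical value of Dixon's test for 4 samples. Among 62 groups examined in this way this was the 1 that stood out. Chance alone flags about 1 in 20 such groups, which is more often than 1 in 62.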

How the results depend on the processing

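No transporter and no gene of the 5 lists had an adjusted p under 0.05 in limma under any of the 19 alternatives. Over all genes the number called, 0 as reported, was 1 without the low-value filter, 2 after rescaling to TPM, 3 after quantile normalization, 6 with array weights, 3 with the length trend removed, and 0 to 2 with a library left out (2 without leukemic library 4). Transporters at an unadjusted p under 0.05, 2 as reported, were 1 with a filter of 5 FPKM, 1 without leukemic libraries 1 and 2, and 2 to 4 with a library left out (4 without control library 3). Their median was -0.101 without the low-value filter and -0.365 on the TPM scale, where the median of all genes was -0.15. With the replicate block, the median was -0.219 and 2 were under 0.05; over all genes 633 were higher and 405 lower at an unadjusted p under 0.05, against 279 and 463. The sign turned in 7 named genes, all with small differences. Without leukemic libraries 1 and 2, the difference was 0.131 for Slc3a2, 0.194 for Slc1a5, 0.045 for Slc38a3, 0.205 for Slc1a4 and 0.076 for Slc7a8. With array weights it was 0.026 for Slc3a2 and 0.03 for Slc43a3, and for Slc38a10 it was -0.032 on the TPM scale and -0.004 after quantile normalization. With a library left out, the range was -0.125 to 0.078 for Slc3a2, -0.233 to 0.054 for Slc1a5, -0.184 to 0.059 for Slc43a3, -0.067 to 0.431 for Slc38a10, -0.36 to 0.207 for Slc38a3, -0.328 to 0.134 for Slc1a4 and -0.298 to 0.005 for Slc7a8. The causes were not tested. Depth is unknown, and values near 1 FPKM, such as those of Slc7a5 and Slc36a1, are the least certain.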
